A study of Homo sapiens with 23 samples.

Results

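The comparison set 4 tumours grown from the knockout line 2B8 against 4 tumours grown from the knockout line 1G10, 8 of the 23 tumours of the series, and each was chosen by the line named in its title. Both lines were made from SCC-13, a human cutaneous squamous cell carcinoma line, and both are labelled as knockout for hFWE, the human Flower gene (CACFD1). Cells mixed with Matrigel were injected under the skin of the flank of NCG mice, an immunodeficient strain, and tumours were taken after 26 days. Poly(A) RNA was sequenced from 500 ng of RNA per tumour. The other tumours, used here only as a backdrop, were 3 from the knockout line 2F7 and 12 from 3 lines labelled WT (5B2, 6C9 and 6C10). Genotype is therefore shared by the 2 groups and the titles set them apart by line. The comparison thus shows how far the tumours of 2 lines with the same labelled knockout stand apart. Library and specimen numbers ran in consecutive blocks by line, so line and that order cannot be told apart. The lines are known by code only, the labels give neither the edit nor whether a line is 1 clone, and they do not say which tumours shared a mouse. The p-values below measure the spread between tumours of these 2 lines.

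Flower is a small membrane protein made as several isoforms, known from work in flies for calcium handling at synapses and for cell competition, in which cells compare their fitness with that of their neighbours. Squamous carcinoma cells can run through part of the programme of normal epidermis, in which basal cells with keratins 5 and 14 become suprabasal cells with keratins 1 and 10 and then form a cornified envelope. The same cells respond to interferons through receptors, JAK kinases and a transcription factor complex with STAT2 and IRF9 that binds promoters of interferon-stimulated genes.

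No gene of 15903 tested passed an adjusted p of 0.05 between the lines (percent called 0 in either direction, limma on log2 of the normalized value plus 1, Benjamini-Hochberg adjustment), and the lowest adjusted p was 0.997. Without adjustment, 579 genes (3.64% of those tested) had p under 0.05, where 795 would be the number at that threshold with no difference at all. They leaned one way: 446 genes (2.8%) had higher values in 2B8 and 133 (0.836%) lower values, so 77.0% were higher in 2B8. Over the other settings that share ran from 65.0% to 92.3%. The lowest was without the 1G10 tumour 5546. The highest (602 of 652 genes) came when every library was rescaled to the same total. With no filter on low values the share was 78.3%, and at a mean of at least 50 it was 68.0%. The libraries differed too: genes detected numbered 23851 to 24451 in 2B8 and 22347 to 23709 in 1G10. Estimated reads were 15413189 to 17855254 in 2B8 and 13623661 to 16354662 in 1G10. The part of library depth in the lean was not tested. The number of genes at an unadjusted p under 0.05 depended on single tumours: it was 267 without the 2B8 tumour 5542 and 915 without the 1G10 tumour 5546. For 351 genes (2.21%) the 8 tumours did not overlap between the lines, 195 (1.23%) with all 2B8 tumours higher and 156 (0.981%) with all 2B8 tumours lower. With no difference at all, a gene would show no overlap at a rate of 0.0286.

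The absence of calls does not show that the lines are alike, and the intervals give the room that is left. The median standard error of a log2 difference was 0.17, and the 95% interval lay wholly within a 2-fold difference for 12839 genes (80.7%) and within a 1.5-fold difference for 8925 genes (56.1%). The estimated difference reached 2-fold for 270 genes, 228 of them higher in 2B8 and 42 lower. The median difference over all genes was -0.0007 on the log2 scale.

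Tumours of different lines were about as far apart as tumours of the same line. The distance between 2 tumours, the root mean square of their log2 differences over the tested genes, was 0.432 to 0.623 for the 6 pairs within 2B8 (median 0.549), 0.522 to 0.810 for the 6 pairs within 1G10 (median 0.661) and 0.457 to 0.743 for the 16 pairs between the lines (median 0.620). The 1G10 tumour 5549 stood apart. It was 2-fold or more away from the mean of its line's other 3 tumours at 1653 genes (10.4%), against 482 to 1091 genes for the other 7 tumours. Without it the medians were 0.554 within 1G10 and 0.570 between the lines. The typical gene also varied more in 1G10: the median standard deviation of a gene's log2 value was 0.259 in 1G10 and 0.20 in 2B8, and it was 0.209 in 1G10 without 5549.

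**Figure D1:**
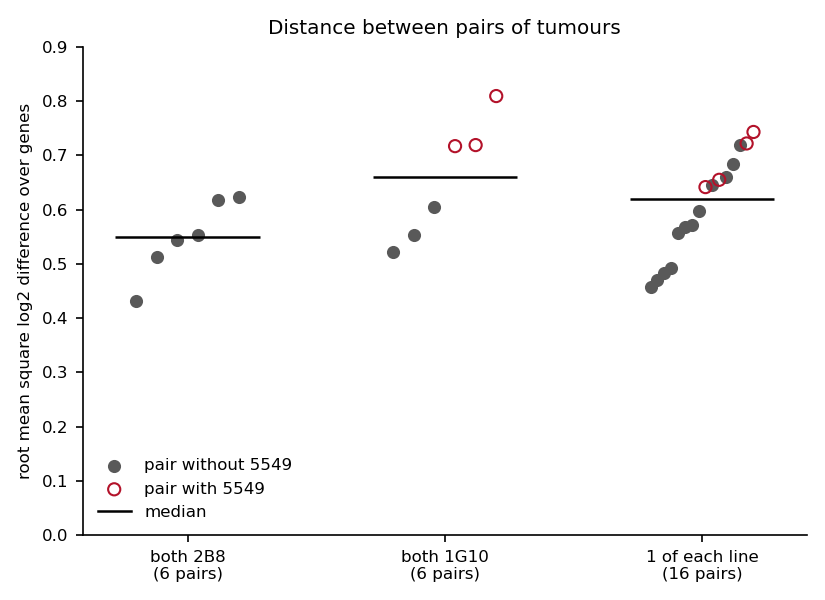
Root mean square log2 difference over the 15903 tested genes for each pair of tumours, by whether the pair lies within 2B8, within 1G10 or spans the lines, with the median of each kind as a line and pairs that hold tumour 5549 as open red circles. The pairs between lines (0.457 to 0.743) span nearly the same range as the pairs within lines, and the 3 most distant pairs within 1G10 all hold 5549.

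CACFD1, the gene labelled as knocked out, was measured in every tumour. Its normalized values were 321, 277, 245 and 218 in the 2B8 tumours 5542 to 5545 and 281, 255, 246 and 167 in the 1G10 tumours 5546 to 5549. The lines overlapped, with means of 265 ± 44.1 in 2B8 and 237 ± 49.0 in 1G10 (SD, n = 4 each). The log2 difference was 0.17 with a standard error of 0.18 and a 95% interval of -0.23 to 0.58, and an exact two-sided permutation test over the 70 ways of splitting the 8 tumours gave p = 0.543. The log2 difference was 0.01 without 5549, 0.08 without 5542 and 0.26 without 5545 or without 5546. The 12 WT tumours lay between 286 and 432 (median 370) and the 2F7 tumours averaged 342. Transcripts of the gene were thus counted in all 8 knockout tumours, and since the sources do not give the edited bases, a value for the whole gene does not check the knockout itself.

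Of the gene lists, the interferon-stimulated genes held the largest share of members with an unadjusted p under 0.05. Of 48 tested interferon-stimulated genes, 47 had higher means in 2B8, 16 of them (33.3%) at an unadjusted p under 0.05 and none lower at that threshold, against 2.8% of all genes higher. None passed the adjusted threshold. The list's median log2 difference was 0.33, beside -0.0007 over all genes, and it stayed between 0.23 and 0.44 under the other settings tried. In 5 of the 48 the tumours did not overlap and all 2B8 tumours were higher, as in 1.23% of all genes.

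To show where the interferon complex would be looked for, the 250 bases upstream of the RefSeq start (GRCh38.p14) are printed for IFI44L and IFIT1, the 2 of the 16 members with the smallest p whose window holds GAAA, any 2 bases and GAAA again, the core of the interferon-stimulated response element. IFI44L lies at chr1:78620198-78620447 on the plus strand and IFIT1 at chr10:89392373-89392622 on the plus strand. Both windows read 5′ to 3′, and capitals mark the matches on either strand, which read as TTTC, any 2 bases and TTTC when they lie on the other strand.
IFI44L: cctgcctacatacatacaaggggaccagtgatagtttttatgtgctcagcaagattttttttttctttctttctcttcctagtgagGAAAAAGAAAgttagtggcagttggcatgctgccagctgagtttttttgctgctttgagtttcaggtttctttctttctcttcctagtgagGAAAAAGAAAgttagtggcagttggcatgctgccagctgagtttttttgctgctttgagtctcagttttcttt
IFIT1: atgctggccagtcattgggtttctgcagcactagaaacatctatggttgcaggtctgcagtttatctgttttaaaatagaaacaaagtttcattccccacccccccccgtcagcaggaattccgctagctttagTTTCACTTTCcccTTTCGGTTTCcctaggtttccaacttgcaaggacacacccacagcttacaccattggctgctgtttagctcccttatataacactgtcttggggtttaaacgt
The IFI44L window held 2 matches, starting 164 and 73 bases before the start, inside a repeated stretch. The IFIT1 window also held 2, starting 116 and 103 bases before the start. Over all RefSeq promoters of this length 1061 of 35116 (3.02%) held the letters on either strand, and 24 of the 38 list members with an entry did (63.2%). Members at an unadjusted p under 0.05 held them in 7 of 12 promoters and the other members in 17 of 26. A match describes the letters and shows no binding.

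STAT2, the subunit of the complex that carries its main activation domain, separated the lines at a moderate size (gene at chr12:56341597-56360167, hg38, minus strand). Its values were 1153, 1091, 1053 and 1057 in 2B8 and 908, 808, 711 and 809 in 1G10, so that the lowest 2B8 tumour lay above the highest 1G10 tumour. The log2 difference was 0.43 with a standard error of 0.09 and a limma adjusted p of 0.997. The 12 WT tumours spanned 448 to 1250, wider than both lines together.

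IFI44L, an antiviral response gene whose level is low in these tumours, was 24.0, 13.2, 50.3 and 76.7 in 2B8 and 11.6, 10.5, 7.39 and 11.7 in 1G10. All 2B8 tumours were higher, 5543 only just, with a log2 difference of 1.63 and a standard error of 0.49. OAS2, which makes the oligoadenylate that activates RNase L, was 383, 317, 477 and 421 against 281, 271, 205 and 302 (log2 difference 0.59, standard error 0.16). Those lines did not overlap either. MX2, a dynamin-like GTPase that restricts viruses, was 102, 60.3, 88.0 and 78.2 against 45.4, 60.0, 33.8 and 53.1, a separation that rests on the small gap between 5543 and 5547. RSAD2 (viperin) was 262, 153, 141 and 159 against 136, 133, 83.4 and 101, with no overlap.

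The other members all overlapped between the lines. IFIT1, which binds foreign RNA caps, was 441, 284, 582 and 765 in 2B8 and 335, 288, 186 and 276 in 1G10 (log2 difference 0.87, standard error 0.29), with 5543 inside the range of 1G10. MX1, the relative of MX2, was 563, 253, 680 and 821 against 407, 319, 174 and 279, with 5543 again among the 1G10 tumours. The most abundant members differed little: IFITM3, a membrane protein that blocks virus entry, had a log2 difference of 0.09 (95% interval -0.25 to 0.43) and LGALS3BP, a secreted glycoprotein, one of 0.14 (-0.13 to 0.41).

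Averaged over the 48 genes, the list score (mean of log2 of the value plus 1) was 8.44, 8.07, 8.68 and 8.73 in the 2B8 tumours and 8.23, 8.09, 7.89 and 8.11 in the 1G10 tumours. The 2B8 tumour 5543 sat at the level of 1G10 and the other 3 sat above every 1G10 tumour. WT tumours ranged from 7.21 to 8.37 and 2F7 tumours from 7.91 to 8.07. The number of members at an unadjusted p under 0.05 was 31 without 5543 and 9 without 5545, and it was 6 when all 23 tumours shared 1 estimate of the spread. It was 13 with the fibroblast and matrix score as a covariate and 12 without both 5544 and 5549.

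**Figure D2:**
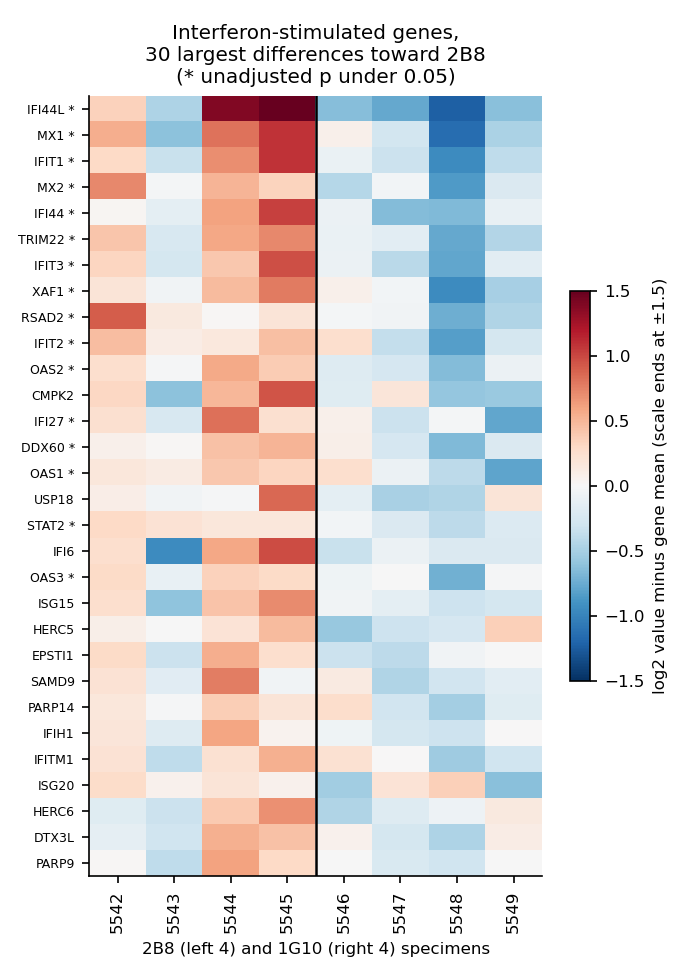
Log2 of the value plus 1 for the 30 tested interferon-stimulated genes with the largest differences toward 2B8 (rows, in the order of the difference) minus its mean over the 8 tumours (columns by specimen number, 2B8 left of the line and 1G10 right). Tumours 5544 and 5545 are red over most rows and 5548 is blue, while 5543 is near or below the gene mean in most rows.

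Regulators of antigen presentation were among the leading genes. CIITA, the master transactivator of MHC class II genes, was 29.1, 35.6, 42.5 and 30.2 in 2B8 and 21.4, 15.6, 8.16 and 12.6 in 1G10, with no overlap and a log2 difference of 1.25 (standard error 0.31). NLRC5, the corresponding transactivator of MHC class I genes, was 299.9, 319, 324 and 299 against 258, 229, 180 and 219 (log2 difference 0.50, standard error 0.13), also without overlap. Of 19 tested genes of the list 17 had higher means in 2B8, 4 (21.1%, against 2.8% of all genes) at an unadjusted p under 0.05, with a median of 0.14. That median moved with single tumours: it was 0.04 without 5544, 0.09 without 5545, 0.08 without 5548, 0.24 without 5542 and 0.22 without 5543. Of the 2 most abundant members, HLA-E had a log2 difference of 0.02 (95% interval -0.28 to 0.31) and B2M, the shared light chain of class I, one of 0.10 (-0.21 to 0.40). HLA-G, at 52.6, 23.6, 141 and 31.5 against 30.03, 22.8, 10.8 and 18.5, and HLA-F made up the 4, and reads may be split between such similar HLA genes. Leukocyte markers summed to 436 to 654 in 2B8 and 420 to 628 in 1G10, and their part in these differences was not tested.

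NRARP, a Notch target that in turn dampens Notch signalling, had the largest statistic of all named genes. The gene lies on the minus strand at chr9:137299631-137302271 (hg38). It was 110, 135, 183 and 131 in 2B8 and 82.8, 50.4, 38.0 and 42.1 in 1G10. Every 2B8 tumour was higher, with a log2 difference of 1.41, a standard error of 0.26 and a 95% interval of 0.84 to 1.99, and the limma adjusted p was 0.997. The difference was 1.19 to 1.64 over the other settings, and the adjusted p came down to 0.127 without 5546, the highest 1G10 tumour. WT tumours spanned 31.4 to 194 and 2F7 averaged 124.

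Other members of the Notch list were mixed. HES4, a transcriptional repressor downstream of Notch, was 104, 91.7, 103 and 76.7 in 2B8 and 78.4, 45.7, 39.1 and 31.99 in 1G10, overlapping by 5545 and 5546. The receptor NOTCH3 was 3389, 3439, 2628 and 2082 against 2676, 1475, 1838 and 947 (log2 difference 0.80, standard error 0.29). HES2 was higher at an unadjusted p under 0.05 as well, and the ligand DLL3, which acts as an inhibitor of the pathway, was lower at 21.6, 11.6, 23.5 and 11.1 against 21.4, 29.5, 31.7 and 31.99. The main ligands JAG1 and JAG2 each had a log2 difference of 0.05. Over the 19 tested members 10 were higher and 9 lower, with a median of 0.05 that was -0.002 without 5549. At an unadjusted p under 0.05, 4 (21.1%) were higher, against 2.8% of all genes, and 1 (5.26%) lower, against 0.836%.

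Among the remaining genes with the largest statistics toward 2B8, GATM, which makes the precursor of creatine, was 79.6, 66.9, 131 and 53.8 in 2B8 and 48.1, 26.7, 32.7 and 31.99 in 1G10. ACKR3, a scavenging receptor for the chemokine CXCL12, was 37.9, 10.7, 18.4 and 17.7 against 5.34, 7.62, 4.22 and 6.24 (log2 difference 1.58, standard error 0.41). MYO1F, a myosin best known from leukocytes, was 15.5, 17.3, 19.3 and 22.1 against 9.80, 2.86, 5.28 and 5.46. CIDEB, a lipid droplet protein whose gene overlaps NOP9 and LTB4R2 on the opposite strand, was 65.2, 79.8, 26.9 and 41.0 against 25.1, 0, 0 and 4.85. None of these overlapped between the lines, although the nearest tumours for CIDEB, 5544 and 5546, were close. Of these, MYO1F is the one usually read as a leukocyte gene. The leukocyte marker sums above overlapped, and the mean score of these markers was 5.98 in 2B8 and 5.59 in 1G10. The part of leukocytes in the MYO1F difference was not tested.

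Toward 1G10, the largest statistic belonged to NDUFC2-KCTD14, a readthrough transcript that shares bases with NDUFC2 and KCTD14, at 5.59, 10.61, 10.1 and 13.6 in 2B8 and 37.8, 19.0, 36.5 and 51.6 in 1G10. Its assignment of reads is uncertain. CKMT1B, a mitochondrial creatine kinase with a near-identical copy (CKMT1A), was 366, 332, 309 and 427 against 473, 496, 586 and 606 and is uncertain in the same way. NOS1, neuronal nitric oxide synthase, was 9.28, 11.6, 8.38 and 20.7 against 24.1, 28.6, 29.6 and 41.4 (log2 difference -1.30, standard error 0.33).

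RBP7, a retinoid-binding protein, was 6.96, 6.61, 0.838 and 3.69 in 2B8 and 9.80, 18.1, 40.1 and 13.3 in 1G10. LRFN1, a synaptic adhesion protein, was 32.5, 42.1, 43.6 and 42.8 against 72.1, 69.5, 52.8 and 64.8. ZNF35, a zinc finger protein, was 81.9, 78.5, 83.8 and 81.1 against 102, 104, 127 and 138, with 2B8 tumours within 6 units of one another. DNTTIP2, a nucleolar protein, was 684, 712, 722 and 673 against 824, 814, 850 and 841, a small log2 difference of -0.25 with a standard error of 0.08. IGFBP3, a secreted binder of insulin-like growth factors, was by far the most abundant of the 16, at 14846, 14923, 11898 and 16914 in 2B8 and 15867, 23694, 23316 and 26917 in 1G10. It was the only one of the 16 whose lines overlapped, through 5545 and 5546, with a log2 difference of -0.60 (95% interval -1.01 to -0.19). The 16 were picked for large statistics of this comparison, so their lack of overlap is no further evidence. For every one of these 16 genes the limma adjusted p was 0.997.

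**Figure D3:**
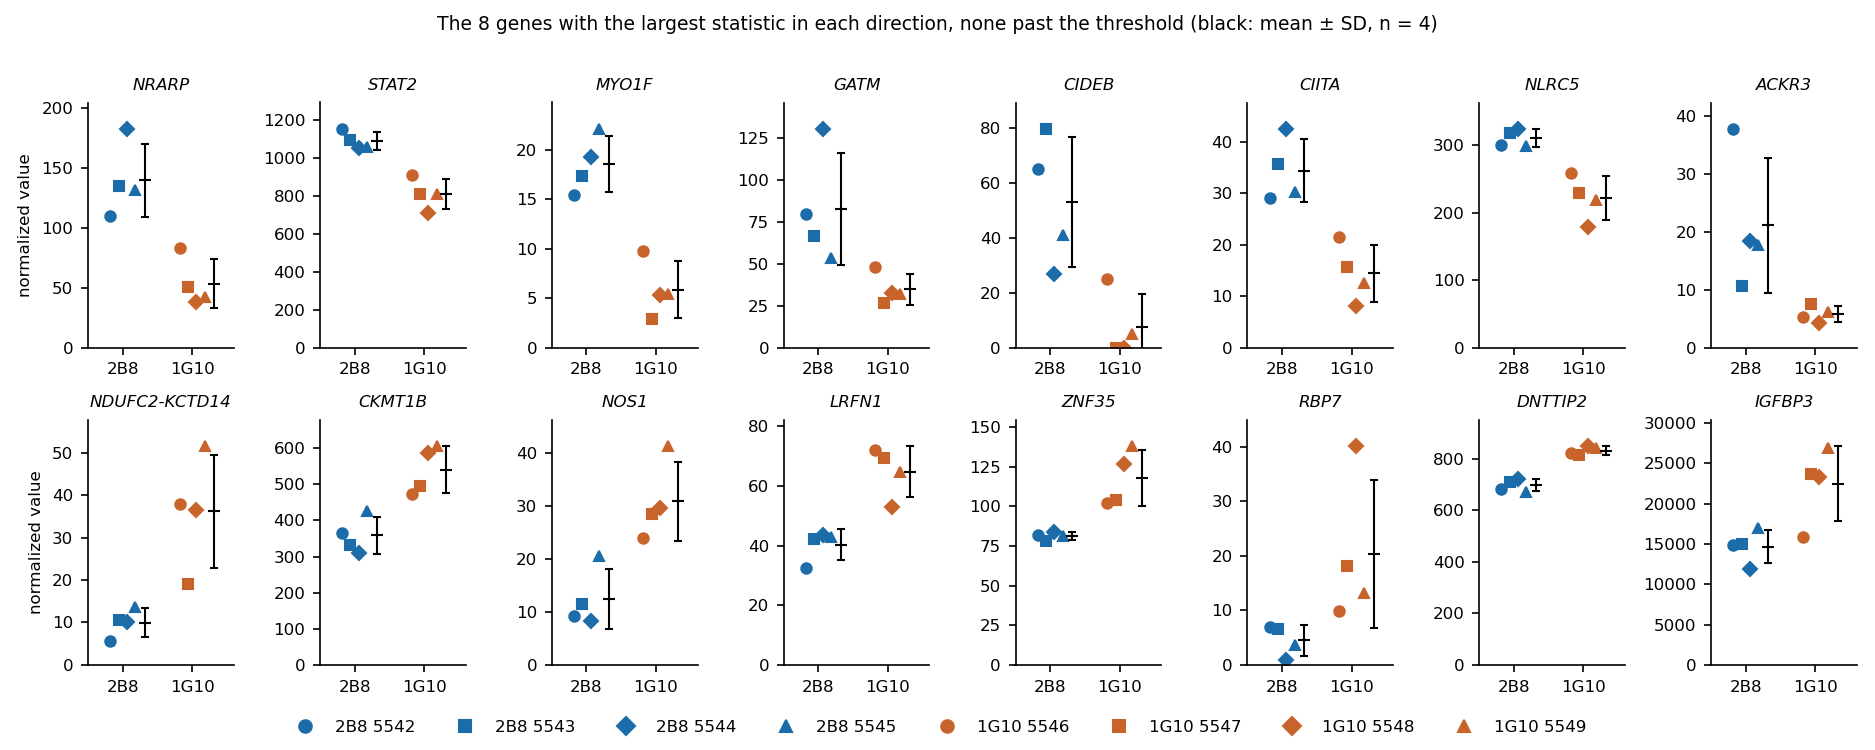
Normalized value in each tumour for the 8 genes with the largest moderated statistic toward 2B8 (top) and toward 1G10 (bottom), on linear axes from 0, with mean and SD in black (a bar that would pass below 0 is clipped). The lines do not overlap in 15 of the 16 panels, IGFBP3 being the exception. The genes were picked by this statistic, which favours such genes, and 2.21% of all tested genes do not overlap.

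The defining markers of squamous keratinocytes were at very high levels in all 8 tumours. KRT5 lay between 287614 and 350791 in 2B8 and between 311385 and 411963 in 1G10 (log2 difference -0.16, 95% interval -0.83 to 0.52). KRT14 lay between 330544 and 359633 in 2B8 and between 360792 and 429157 in 1G10, without overlap (log2 difference -0.16, -0.84 to 0.52). The limma intervals draw partly on the variance of other genes of similar abundance, so the KRT14 interval is wider than its own values alone would give. TP63, the transcription factor that defines the lineage, had a log2 difference of 0.01 (-0.30 to 0.33). Of the 8 tested markers of this list 7 had lower means in 2B8 and 1 a higher mean, none at an unadjusted p under 0.05. The list's median was -0.16, and it stayed between -0.21 and -0.06 over the other settings.

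Differentiation genes rested on 1 tumour. KRT1 was 22651, 57123, 40143 and 47864 in 2B8 and 78903, 20522, 32328 and 2063 in 1G10, and KRT10, its partner, was 68183, 122434, 76655 and 107416 against 147355, 65250, 132008 and 6798. Filaggrin (FLG), which bundles keratin filaments, was 17148, 50802, 22421 and 26943 against 42727, 24147, 36093 and 2719. In each, 5549 was the lowest of the 8 and the other 3 tumours of 1G10 overlapped 2B8. The cornified envelope score of 41 genes was 9.59, 10.1, 9.53 and 9.51 in 2B8 and 9.60, 10.1, 10.5 and 8.06 in 1G10, and WT tumours had 9.66 to 11.0.

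The direction of most differentiation lists turned when 5549 was left out. The median log2 difference went from 0.06 to -0.37 for the cornified envelope, from 0.18 to -0.32 for suprabasal keratins and spinous markers, from 0.02 to -0.33 for barrier lipid genes and from 0.05 to -0.23 for wound keratins and alarmins. For epidermal proteases and inhibitors it went from -0.17 to -0.55. Cell cycle and replication genes turned the other way, from -0.08 to 0.30: their score was 9.02 in 5549, 7.51 to 7.59 in the other 1G10 tumours and 7.64 to 8.06 in 2B8. Across these 6 lists, 1 gene was higher and 2 were lower in 2B8 at an unadjusted p under 0.05. TCHHL1, a cornified envelope gene of the S100 fused family, was higher, 1 of 41 tested (2.44%, against 2.8% of all genes). KRT9, 1 of 24 in its list (4.17%), and the protease CTSV, 1 of 20 (5%), were lower, against 0.836% of all genes. The barrier lipid, wound keratin and cell cycle lists had none.

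Lipid and glycolytic genes had lower means in 2B8 by small amounts. In cholesterol and fatty acid synthesis 27 of 33 tested genes were lower, 3 of them at an unadjusted p under 0.05 (9.09% against 0.836% of all genes), with a median of -0.19 and a range of -0.23 to -0.07 over the other settings. INSIG1, the sterol sensor that holds back SREBP processing, was 567, 595, 743 and 636 in 2B8 and 654, 911, 919 and 943 in 1G10, overlapping through 5544 and 5546. HMGCS1, an early enzyme of the pathway, was 1280, 1511, 1457 and 1460 against 1615, 1524, 1985 and 1633, just without overlap, and STARD4, a sterol carrier, was the third. Among hypoxia and glycolysis genes 25 of 30 were lower, 1 (3.33%, against 0.836% of all genes) at an unadjusted p under 0.05, with a median of -0.13.

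Cytokine and NF-kB genes had a median of 0.19, with 20 of 23 higher in 2B8 and 3 (13.0%, against 2.8% of all genes) at an unadjusted p under 0.05. The median was 0.40 without 5545, 0.30 without 5547, 0.11 without 5542, 0.12 without 5543, 0.11 without 5549 and -0.03 without both 5544 and 5549. TNFAIP2, a target of tumour necrosis factor, was 1585, 1366, 1328 and 1218 in 2B8 and 1217, 1072, 997 and 899.7 in 1G10, and NFKB2, a subunit of the non-canonical pathway, was 315, 263, 256 and 233 against 232, 223, 156 and 217. Both separated the lines, with very narrow gaps between the nearest tumours. MMP13, a collagenase, was 513, 439, 922 and 546 against 375, 386, 403 and 429. It was the only 1 of 22 tested matrix protease and plasminogen genes at an unadjusted p under 0.05 (4.55%, against 2.8% of all genes). Of 27 calcium handling and cell competition genes linked to Flower, 1 met that threshold, higher in 2B8 (3.70%, near the 2.8% of all genes). This was the calcium channel TRPV6, at 12.4, 19.0, 20.1 and 15.5 against 14.3, 3.81, 5.28 and 7.80.

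**Figure D4:**
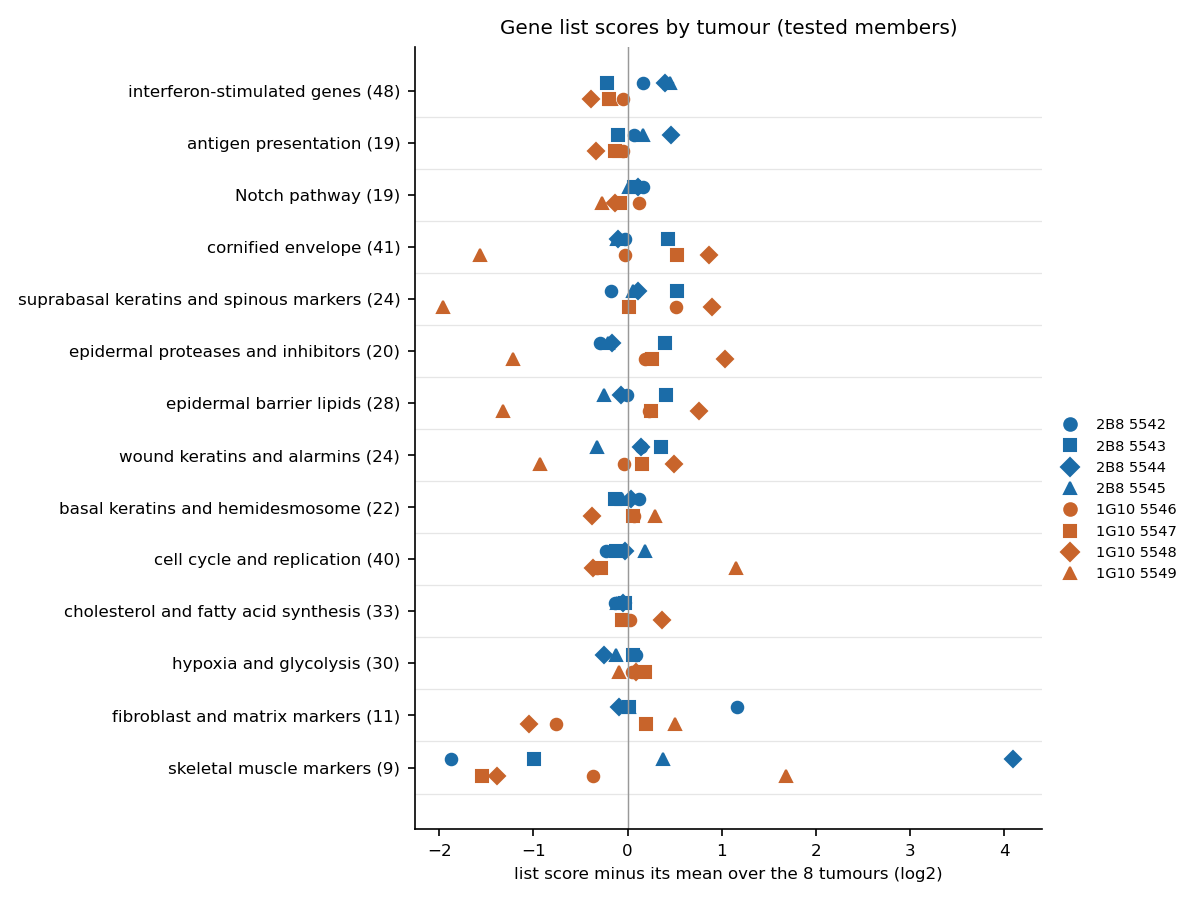
Score of 14 gene lists in each tumour, the mean log2 value plus 1 of the tested members (number in brackets), minus its mean over the 8 tumours, with 2B8 in blue above and 1G10 in orange below. Tumour 5549 (orange triangle) is lowest in the differentiation lists and highest in the cell cycle, and 5544 (blue diamond) is highest in muscle markers.

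Markers of other cell types moved with single tumours. RNA was taken from whole tumours, so fewer cells of a type and less RNA per cell cannot be told apart, and reads of the mouse host were not separated here. All 11 tested fibroblast and matrix markers had higher means in 2B8, none at an unadjusted p under 0.05, with a median of 0.57 that was 0.87 without 5549. Their summed value ranged from 9907 to 32728 in 2B8 and from 5288 to 18078 in 1G10. COL1A1 was 18009, 9020, 4465 and 5797 against 4888, 9432, 2510 and 9264. All 9 skeletal muscle markers also had higher means in 2B8 (median 0.89), but the summed value was 15018 in 5544 and 240 to 1066 in the other 2B8 tumours, against 258 to 2734 in 1G10, and the median was -0.51 without 5544. Of 9 leukocyte markers 4 were tested, with only LYZ (25%, against 2.8% of all genes) higher at an unadjusted p under 0.05. Endothelial markers summed to 83.3 to 135 and 84.6 to 130, with 3 of 8 tested. Adipocyte markers summed to at most 30.2, with none tested, and Schwann and nerve markers to at most 89.7, with 1 tested. The deposited values covered 7 of 9 leukocyte, 4 of 5 adipocyte and 4 of 5 Schwann and nerve markers, and all members of the other lists. No covered member was at 0 in all 8 tumours. The part of these cells in the differences above was not tested. The covariate fit, in which the interferon median was 0.33, held only the fibroblast and matrix score and none of the other cell types.

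Chromosome 20 was the only chromosome whose median difference passed 0.05 in size. Its 415 tested genes had a median log2 difference of -0.14, and 315 of them (75.9%) were lower in 2B8. The level of the chromosome, the median over its genes of the log2 value minus the gene's mean over the 8 tumours, was 0.23, 0.12, -0.31 and -0.32 in 2B8 and -0.31, 0.22, 0.22 and 0.14 in 1G10. Each line thus held tumours at both levels: 5544, 5545 and 5546 were low and the other 5 high. All 10 blocks of 40 neighbouring genes along it had negative medians, from -0.21 to -0.09. Over the other settings the chromosome's median stayed negative, between -0.26 and -0.03. Against gene means over all 23 tumours, both levels were seen in other lines too: 5B2, 6C9 and 2F7 had 1 tumour each at 0.22 to 0.39, and their remaining tumours and all 4 of 6C10 lay between -0.30 and -0.13.

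**Figure D5:**
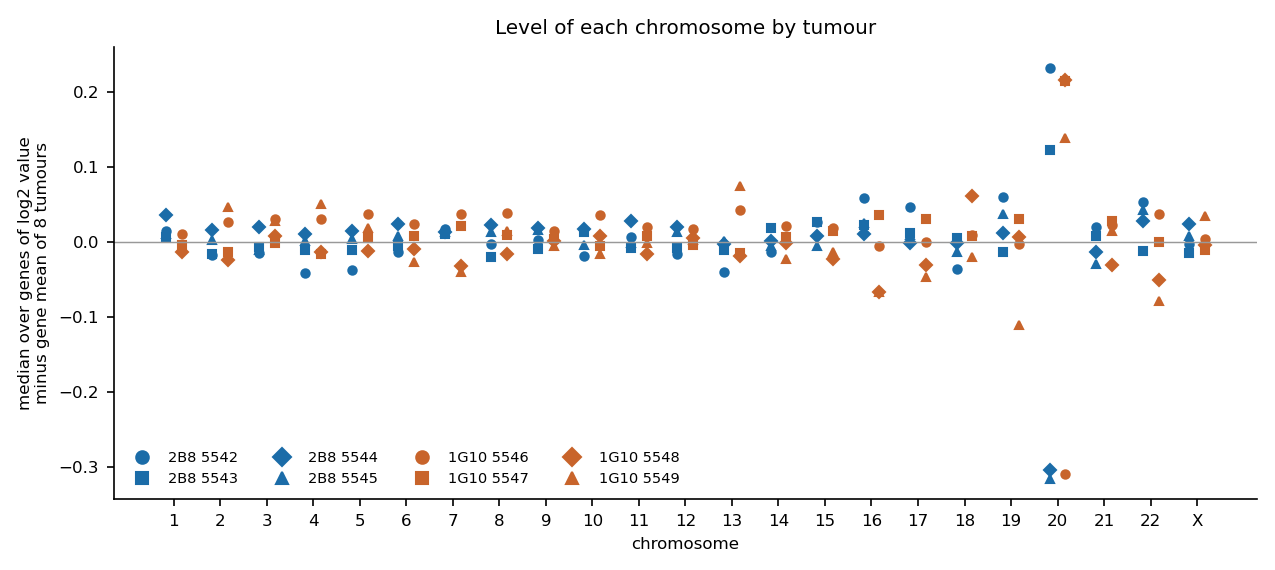
Median over the tested genes of each chromosome of the log2 value plus 1 minus the gene's mean over the 8 tumours, for each tumour, with 2B8 in blue on the left and 1G10 in orange on the right of each position. Chromosome 20 divides tumours at about 0.2 and -0.3 within both lines, and the other chromosomes stay within about 0.1 of 0.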

How the data were processed

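The deposited table held 1 signal value per gene and library: read counts that the authors normalized, with STAR, DESeq2 and hg38 named in the submitters' processing notes without versions or roles. From the smallest steps, 13623661 to 17855254 reads per library were estimated for the 8 tumours. Within 0.02 reads, 69.4% to 72.3% of low values were whole multiples, so whole reads were not recovered and no count test was run. The table's gene ends were 1 past the last base. No pair of libraries agreed within sampling noise (lowest chi-square per degree of freedom 14.7). The mitochondrial share was 1.42% to 2.92%.

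Of 27589 genes, the 15903 whose mean across the 8 tumours reached 10 were tested on log2(value + 1) with limma 3.58.1 in R 4.3.3 (trended prior, two-sided, Benjamini-Hochberg). The procedure was tested on simulated normal values drawn independently for each gene. That simulation held no tumour that stood apart across genes, as 5549 did here. A fold change on the log2(value + 1) scale understates the change of low genes. A call needed an adjusted p under 0.05. Symbols were named genome-wide as the 8 largest moderated statistics in each direction among genes with official symbols. In each list the rule names the 2 most abundant members, and other members named by their p were chosen after their values were seen. The members and lists were chosen with earlier results of these data known. List scores, chromosomes and promoters are descriptions without a test. Alternatives were pseudocounts of 0.5 and 5, no filter or a mean of at least 50, 2 other scalings, all 23 tumours, quality weights, a robust prior, a fibroblast score as covariate and leaving out each tumour. Leaving out 5544 and 5549 together was chosen after seeing the data.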

Additional observations from a re-analysis of the deposited data

Results flagged for a closer look

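Among 150 groups of 4 tumours looked at (values of named genes, list scores and chromosome levels within a line), 7 held a tumour far from the other 3, its gap to the nearest, as a share of the group's range, passing Dixon's 95% critical value. Chance gives about 1 in 20. LRFN1 was lowest in a 2B8 tumour, 5542, at 32.5. Within 2B8, tumour 5543 was high in the cornified envelope score (10.1), 5545 low in the interleukin, chemokine and NF-kB score (7.18) and 5542 high in the fibroblast and matrix score (8.63). Within 1G10, 5549 was high in the cell cycle and replication score (9.02) and low in the p53 target score (8.86), and 5546 was low in the level of chromosome 20 (-0.31).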

How the results depend on the processing

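The count of called genes was 0 under all 19 alternatives, and the lowest adjusted p was 0.0924, without the 1G10 tumour 5546. Genes at an unadjusted p under 0.05 numbered 579 as reported, 1309 with no filter, 331 at a mean of at least 50, 202 with all 23 tumours in the fit and 267 to 915 when 1 tumour was left out. Interferon-stimulated genes higher in 2B8 at that threshold numbered 16 as reported, 6 with all 23 tumours in the fit and 9 to 31 when 1 tumour was left out. No named gene changed direction or side of the threshold. Of 665 list medians 6 moved by more than the spread between tumours, and of 437 chromosome medians 44 did. The placement of the other lines at called genes was not run, since no gene was called. No paired analysis was possible because specimen numbers are unique to each tumour and pair none across the lines. With 4 tumours a line, an exact permutation test cannot go below p = 0.0286.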

Other observations

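Mitochondrially encoded genes had higher means in 2B8 for all 15 tested members, with a median log2 difference of 0.13 and none at an unadjusted p under 0.05. Their score was 14.2, 14.1, 13.1 and 13.2 in 2B8 and 13.6, 13.7, 13.2 and 13.5 in 1G10, so that 5542 and 5543 were the highest and 5544 the lowest of the 8, and the median was -0.09 with the fibroblast score as a covariate. Of 31 HOX genes, which set position along the body axis, 27 had higher means in 2B8 (median 0.12), HOXB3 and HOXB4 (6.45%, against 2.8% of all genes) at an unadjusted p under 0.05.

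Ribosomal protein pseudogenes, a group formed after the values were seen, had a median log2 difference of 0.17 over 188 tested, with 24 (12.8%) higher and none lower in 2B8 at an unadjusted p under 0.05, against 2.8% and 0.836% of all genes. The 84 cytosolic ribosomal protein genes had a median of -0.02. Pseudogene values share reads with their parent genes and are uncertain. Their score was 6.63, 6.16, 6.61 and 6.67 in 2B8 and 6.16, 6.13, 6.08 and 6.41 in 1G10, with 5543 at the level of 1G10.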
